A study of Mus musculus with 8 samples.

Results

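The 10 genes described here were *Pdgfra*, *Cspg4*, *Olig1*, *Olig2*, *Sox10*, *Nkx2-2*, *Bcas1*, *Enpp6*, *Tcf7l2* and *Myrf*, which were taken by name from the 32285 genes of a table of unique molecular identifier (UMI) counts because they mark or steer the stages of the oligodendrocyte lineage. Their counts were followed through the nuclei that the study annotated as oligodendrocyte precursor cells (OPC, 1522 nuclei), newly formed oligodendrocytes (NFOL, 465 nuclei) and mature oligodendrocytes (MOL, 5612 nuclei), 7599 of 61949 nuclei in all. The study asked how loss of myelin integrity acts on a brain that accumulates amyloid. Nuclei came from hemispheres of 6-month-old C57BL6/J mice, without the olfactory bulb and the cerebellum, and were profiled by droplet single-nucleus RNA sequencing. The mice were wild type (WT), lacked the myelin protein CNP in every cell (*Cnp*-/-), carried the 5xFAD transgenes, which drive mutant human amyloid precursor protein and presenilin from a neuronal promoter, or had both defects (*Cnp*-/-;5xFAD), with 2 libraries per genotype. The study's reporting summary says that 2 animals were pooled per replicate in its single-cell work, while its methods describe pooling only for another dataset, so that p-values here measure the spread between libraries that may each hold 1 animal or a pool.

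Oligodendrocytes arise from precursors that divide and migrate under platelet-derived growth factor. When a precursor commits, it leaves the cell cycle, silences the growth factor receptor, passes through a short newly formed state and then switches on the genes of compact myelin. OLIG1, OLIG2, SOX10 and NKX2-2 are transcription factors present through most of this path, TCF7L2 acts around the passage into differentiation, and MYRF is the factor that myelin genes require.

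For each library and stage, the UMIs of all nuclei were summed and a gene's level was expressed as UMIs per 1000000 UMIs of that profile (CPM). A library held 90 to 309 OPC, 22 to 104 NFOL and 444 to 1018 MOL nuclei, and its profiles held 350331 to 1057104, 152443 to 555269 and 819922 to 1801866 UMIs. A nucleus had a median of 3036 UMIs in OPC, 4852 in NFOL and 1515 in MOL. *Cnp* itself was at 219 to 321 CPM in MOL of the WT and 5xFAD libraries and at 23.1 to 32.8 CPM in MOL of the *Cnp*-null libraries, while in OPC, where it was low, the genotypes overlapped. Of all nuclei, 909 carried 1 of 454 barcodes found in more than 1 library, among them 20 lineage nuclei whose barcode belonged to a lineage nucleus of another library. Because a level is relative to the UMIs of its own profile, it is not set by the number of nuclei of that type. A summed level alone does not tell fewer nuclei with a gene from fewer UMIs of it per nucleus.

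RefSeq promoter windows, the 250 bases before a transcription start in GRCm38.p6, were at hand for 6 of the 10 genes. Of these, 3 are shown because the stage patterns below turn on their genes: *Pdgfra*, lower in NFOL than in OPC and nearly absent from MOL, *Tcf7l2*, highest in NFOL, and *Enpp6*, which was nearly absent from OPC and differed by genotype in MOL. Capitals mark matches on either strand to the letters recognised by factors of the lineage, namely the E-box CANNTG of OLIG proteins, the SOX letters ACAAAG or ACAATG, the TCF/LEF letters CTTTGA, the MYRF letters CTGGNAC and the NKX2 letters TNAAGTG.
Pdgfra: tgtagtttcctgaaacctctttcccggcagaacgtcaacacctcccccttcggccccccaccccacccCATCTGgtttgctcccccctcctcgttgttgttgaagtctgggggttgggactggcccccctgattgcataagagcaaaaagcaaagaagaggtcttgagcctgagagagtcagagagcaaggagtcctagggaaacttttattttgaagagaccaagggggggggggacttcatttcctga
Enpp6: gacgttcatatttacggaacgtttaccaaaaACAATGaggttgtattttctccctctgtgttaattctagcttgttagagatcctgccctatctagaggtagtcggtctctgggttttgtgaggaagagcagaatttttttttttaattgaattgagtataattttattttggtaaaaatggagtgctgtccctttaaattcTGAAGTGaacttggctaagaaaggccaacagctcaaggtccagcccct
Tcf7l2: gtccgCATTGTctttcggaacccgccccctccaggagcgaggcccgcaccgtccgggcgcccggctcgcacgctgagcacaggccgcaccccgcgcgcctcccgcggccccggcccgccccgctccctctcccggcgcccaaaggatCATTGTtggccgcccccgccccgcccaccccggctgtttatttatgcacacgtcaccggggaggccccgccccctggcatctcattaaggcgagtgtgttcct
The windows lie on the plus strand at chr5:75152001-75152250 for *Pdgfra*, chr8:46986637-46986886 for *Enpp6* and chr19:55741560-55741809 for the more upstream of the *Tcf7l2* starts in the table. The *Pdgfra* window held 1 E-box, a motif found in 66.2% of all 32851 windows. The *Enpp6* window held 1 SOX match, at base -219 from the start, and 1 NKX2 match, at base -48, which 25.2% and 10.1% of windows held. The *Tcf7l2* window held 2 SOX matches and none of the other motifs. TCF/LEF letters, in 13.8% of windows, and MYRF letters, in 16.1%, were in none of these 3. Such matches describe letters and are not evidence of binding.

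Pdgfra and Cspg4, the precursor genes, were highest in OPC in all 8 libraries. *Pdgfra* (ENSMUSG00000029231, chromosome 5, 75152292 to 75198215), the receptor for platelet-derived growth factor A, was at 850 ± 107 CPM in OPC (SD, n = 8 libraries here and for the levels that follow), ranging from 708 to 1088. It was at 363 ± 52.2 CPM in NFOL, and in MOL only 4 UMIs were counted in all 8 libraries, from 0 to 1.22 CPM. The OPC and NFOL ranges did not overlap, and the log2 change from OPC to NFOL was -1.23 ± 0.09, the smallest spread of any of the 10 genes at that step. From NFOL to MOL the log2 change, with 1 CPM added to each level, was -8.14 ± 0.56, the 11th lowest of 10533 genes that reached 10 CPM in either stage. Stages were clusters of these same counts, and the study displayed *Pdgfra*, *Cspg4*, *Enpp6* and *Bcas1* as their markers, so all changes between stages are descriptions without a test.

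*Cspg4* (ENSMUSG00000032911, chromosome 9, 56865033 to 56899870) encodes the NG2 proteoglycan of precursors and pericytes. It was at 338 ± 64.1 CPM in OPC and at 166 ± 31.1 CPM in NFOL, a log2 change of -1.02 ± 0.20. In MOL it was at 8.53 ± 10.5 CPM, and the libraries differed widely. WT replicate 1 had 0 UMIs, the other WT library had 16, both 5xFAD libraries had 26 each, and the *Cnp*-null libraries had 1 to 3.

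The 4 pan-lineage factors changed less between stages than the precursor genes. *Sox10* (ENSMUSG00000033006, chromosome 15, 79154908 to 79165240) encodes the SOX factor that holds the lineage identity from precursor to myelin. It was at 427 ± 33.2 CPM in OPC, 361 ± 54.3 in NFOL and 449 ± 82.3 in MOL, and these ranges overlapped. *Olig2* (ENSMUSG00000039830, chromosome 16, 91225457 to 91228677), the basic helix-loop-helix factor that specifies the lineage, went from 109 ± 37.2 CPM in OPC to 70.2 ± 29.9 in NFOL and 39.1 ± 13.5 in MOL. It was lower in NFOL than in OPC in 7 of 8 libraries, and lower in MOL than in NFOL in 7 of 8.

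*Olig1* (ENSMUSG00000046160, chromosome 16, 91269772 to 91271933), the related factor whose gene starts 41094 bp beyond the end of *Olig2*, did not follow that order. It was at 118 ± 50.5 CPM in OPC, 67.2 ± 40.4 in NFOL and 82.4 ± 26.5 in MOL, and the step from NFOL to MOL was upward in 6 of 8 libraries. WT replicate 2 had the highest *Olig1* level at every stage, 240 CPM in OPC, 164 in NFOL and 136 in MOL, and also the highest *Olig2* level at every stage, 194, 138 and 57.1 CPM. *Nkx2-2* (ENSMUSG00000027434, chromosome 2, 147177546 to 147194243), a homeodomain factor that represses *Pdgfra* at the onset of differentiation, was at 70.4 ± 10.4 CPM in OPC, 65.6 ± 14.8 in NFOL and 42.1 ± 11.8 in MOL. It rose from OPC to NFOL in 4 libraries and fell in the other 4, then fell to MOL in 7 of 8.

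*Enpp6*, *Tcf7l2* and *Bcas1* had a higher mean over the 8 libraries in NFOL than in either neighbour. *Enpp6* (ENSMUSG00000038173, chromosome 8, 46986887 to 47096762), a choline-specific phosphodiesterase used as a marker of oligodendrocytes that have just formed, was nearly absent from OPC, with 32 UMIs in all and 8.17 ± 10.4 CPM. In NFOL it was at 210 ± 63.3 CPM, a log2 change of 5.03 ± 1.14 and the 3rd highest of 10585 genes, whose median was 0.05. In MOL it was at 115 ± 67.5 CPM, and this mean hides a split by *Cnp* genotype that is described below.

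*Tcf7l2* (ENSMUSG00000024985, chromosome 19, 55741820 to 55933654), a transcription factor of the Wnt pathway, peaked most clearly in NFOL. It was at 184 ± 27.7 CPM in OPC, 576 ± 228 in NFOL and 98.4 ± 18.9 in MOL, with no overlap of the NFOL range, 326 to 1045 CPM, with either neighbour. Its NFOL level stood 1.64 log2 units above the higher of its neighbours, rank 298 of 10124 genes, beside 0.48 for *Bcas1* (rank 942) and 0.87 for *Enpp6* (rank 538). Of these genes, 31.8% were above 0 on this measure. For *Enpp6* the value depended on the genotypes averaged: it was 2.15 in the *Cnp*-null libraries, where NFOL was highest in 4 of 4, and 0.05 in the WT and 5xFAD libraries, where NFOL was highest in 2 of 4 and the means were 183 CPM in NFOL and 177 in MOL. For *Tcf7l2* it was 2.04 and 1.21, with NFOL highest in every library. These values are of all annotated NFOL nuclei, of which 53.8 to 83.8% held astrocyte or microglia markers in the WT and 5xFAD libraries, as described below. Without such nuclei, *Enpp6* in these libraries was at 428 to 583 CPM in NFOL and at 155 to 196 CPM in MOL. NFOL was then highest in each of them, although WT replicate 1 kept only 6 NFOL nuclei.

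*Bcas1* (ENSMUSG00000013523, chromosome 2, 170346991 to 170427845) encodes a protein of early myelinating oligodendrocytes. It was already at 529 ± 63.7 CPM in OPC, reached 1359 ± 392 in NFOL and stayed at 977 ± 88.8 in MOL. WT replicate 1, at 551 CPM, was the only library whose NFOL level lay within the OPC range, 447 to 626 CPM, and the only library that rose from NFOL to MOL.

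*Myrf* (ENSMUSG00000036098, chromosome 19, 10208272 to 10240748), the membrane-bound factor needed for myelin gene expression, rose at both steps in every library. It was at 17.6 ± 10.2 CPM in OPC, 72.3 ± 38.9 in NFOL and 260 ± 24.2 in MOL, and the 3 ranges overlapped only between OPC, up to 28.4 CPM, and NFOL, from 23.1 CPM. Its log2 changes were 2.15 ± 0.87 and 2.00 ± 0.79, while the median gene moved by 0.05 and -0.40. The plot of levels by stage shows each library's value for all 10 genes.

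**Figure D1:**
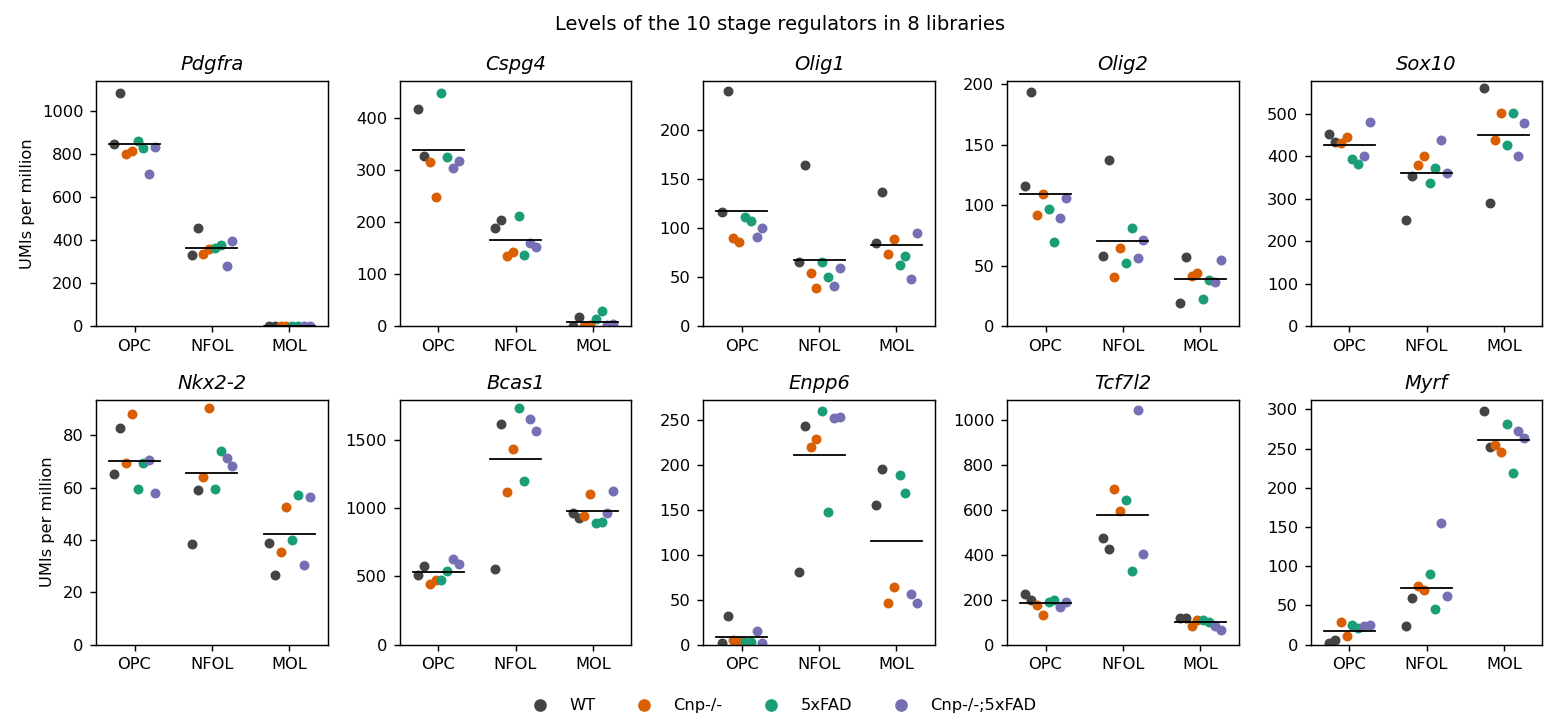
Level of each of the 10 genes (CPM) in OPC, NFOL and MOL, 1 dot per library coloured by genotype, with a bar at the mean of 8 libraries. *Pdgfra* falls from a mean of 850 to 363 and then 0.362 CPM, *Tcf7l2* peaks in NFOL at 576 CPM, *Myrf* climbs to 260 CPM in MOL, and the MOL dots of *Enpp6* form a low and a high group.

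The label NFOL was checked against 6 markers, *Enpp6*, *Bcas1*, *Gpr17*, *Itpr2*, *Tmem163* and *Neu4*, and the data went partly against it. *Gpr17*, a receptor of committed precursors, was at 51.1 to 148 CPM in OPC and 38.5 to 151 in NFOL, and *Neu4* was at 128 to 297 and 46.2 to 190 CPM. *Itpr2*, a calcium channel of newly formed oligodendrocytes, averaged 532 CPM in OPC and 670 in NFOL, and *Tmem163* 312 and 363. The summed precursor markers were still at 4713 to 6101 CPM in NFOL, beside 9736 to 11017 in OPC. Astrocyte markers summed to 1014 to 2894 CPM in NFOL and to 6.09 to 51.5 CPM in MOL. Of the 465 NFOL nuclei, 262 (56.3%) held 3 or more UMIs of astrocyte or microglia markers, beside 17.5% of OPC and 0.214% of MOL nuclei. These shares were counted without thinning, so that they also depend on depth, with a median of 4852 UMIs in NFOL, 3036 in OPC and 1515 in MOL. Nuclei were therefore also counted by which of *Pdgfra* and *Enpp6* they held.

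In NFOL, 262 nuclei (56.3%) had *Pdgfra* but no *Enpp6* UMIs, 106 (22.8%) had *Enpp6* but no *Pdgfra*, 38 (8.17%) had both and 59 (12.7%) had neither. After each nucleus was thinned to 1000 UMIs, both were found in 4 of 465 nuclei (0.860%). Each library's counts and the levels of the other 8 genes are drawn in the plot of NFOL nuclei by class. The classes were defined by *Pdgfra* and *Enpp6*, and their other genes belong to the same clustered nuclei, so the levels below are again a description.

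*Bcas1*, *Tcf7l2* and *Nkx2-2* were higher, and *Cspg4* lower, in the nuclei with *Enpp6* alone, without overlap between libraries. *Bcas1* averaged 4348 CPM in them (3628 to 5296 over 6 libraries, since both WT libraries had only 3 such nuclei each and were left out) and 445 CPM in those with *Pdgfra* alone (282 to 610 over 8 libraries). *Tcf7l2* averaged 1795 CPM (612 to 3018) against 277 CPM (140 to 485).

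*Nkx2-2* was at 147 CPM (98.5 to 178) against 50.4 CPM (27.4 to 73.5), although its mean over all NFOL nuclei differed little from OPC. *Myrf* was at 161 CPM (74.8 to 319) against 42.2 CPM (10.7 to 82.3), with overlap, and *Sox10* at 511 CPM (355 to 665) against 303 CPM (197 to 389). *Cspg4* went the other way, at 40.1 CPM (13.7 to 89.8) against 213 CPM (156 to 259). *Olig1* and *Olig2* differed little, with means of 53.6 and 65.4 CPM for *Olig1* and of 70.6 and 66.2 CPM for *Olig2*. Over all libraries pooled, astrocyte markers were at 512 CPM in the nuclei with *Enpp6* alone and at 2205 CPM in those with *Pdgfra* alone, and microglia markers at 60.8 and 388 CPM. The annotated NFOL stage thus held nuclei of unlike levels, and the part of the other cell types' transcripts in its averages was not tested. Without the nuclei that held 3 or more astrocyte or microglia marker UMIs, *Enpp6* in NFOL was at 422 to 614 CPM, above every library's level over all NFOL nuclei, and *Bcas1* was at 1732 to 3548 CPM.

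**Figure D2:**
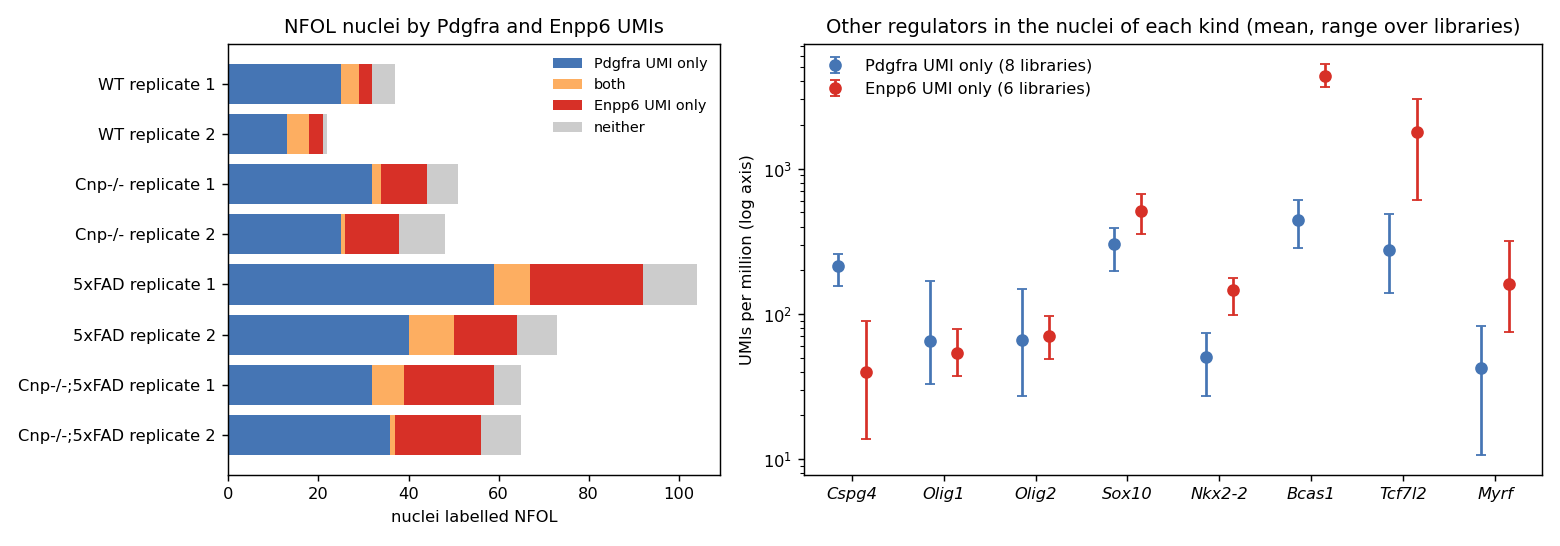
Left, number of NFOL nuclei per library with *Pdgfra* only, both, *Enpp6* only or neither, as stacked bars. Right, level (CPM, log axis) of the other 8 genes in the nuclei with *Pdgfra* only and with *Enpp6* only, as the mean and range over libraries, where *Bcas1* averages 445 and 4348 CPM and *Cspg4* 213 and 40.1 CPM.

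The share of nuclei with at least 1 UMI was compared between stages after thinning to 1000 UMIs. *Pdgfra* was found in 54.8% of OPC, 26.9% of NFOL and 0.0441% of MOL nuclei, and in 0.315% of neurons, which should lack it and had a median of 9105 UMIs. *Enpp6* was found in 0.460% of OPC, 17.2% of NFOL and 8.56% of MOL nuclei, beside 0.182% of neurons. *Myrf* was found in 1.84% of OPC, 8.82% of NFOL and 22.6% of MOL nuclei, beside 0.315% of neurons. The 0.460% in OPC came from 7 of 1522 nuclei. Before thinning, *Pdgfra* was found in 85.9% of OPC and *Enpp6* in 31.0% of NFOL nuclei.

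*Bcas1* was found in single nuclei of every stage, in 32.9% of OPC, 47.5% of NFOL and 59.4% of MOL nuclei after thinning, beside 1.12% of neurons, an order that differed from that of its levels, which were highest in NFOL. *Pdgfra* and *Bcas1* were both found in 257 of 1522 thinned OPC nuclei (16.9%) and in 43 of 465 NFOL nuclei (9.25%). Of the 80 NFOL nuclei with *Enpp6*, 70 also held *Bcas1*, above its share of all NFOL nuclei. Of the 388 MOL nuclei with *Enpp6*, 221 held *Bcas1*, which was not above its share of all MOL nuclei. *Olig1* and *Olig2* were found together in 1.18% of OPC nuclei, where *Olig1* was found in 10.3% and *Olig2* in 9.59% of nuclei, so that few pairs could be seen at this depth.

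The effect of *Cnp* loss was the mean of its effects without and with the 5xFAD transgenes, the effect of 5xFAD was taken likewise, and the interaction was the difference between both *Cnp* effects. They were tested on summed counts over all 8 libraries with edgeR's quasi-likelihood test, adjusted by Benjamini-Hochberg over all genes of a stage, at 0.05. In MOL, *Enpp6* fell with *Cnp* loss and no other of the 9 genes tested passed (*Pdgfra* was too low to test), where 67 of 8761 genes (0.765%) passed by edgeR, 39 of them higher. DESeq2 called 512 genes in this contrast, 222 of them higher, and leaving out 1 library moved the edgeR count to between 2 (without 5xFAD replicate 2) and 262 (without *Cnp*-/- replicate 1).

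*Enpp6* in MOL was at 155 and 196 CPM in the WT libraries and at 189 and 168 CPM in the 5xFAD libraries. It was at 46.3 and 63.4 CPM in the *Cnp*-/- libraries and at 56.2 and 46.2 CPM in the *Cnp*-/-;5xFAD libraries. The 4 *Cnp*-null libraries, at 53.0 ± 8.38 CPM, all lay below the 4 others, at 177 ± 18.5 CPM, and the counts behind these levels were 45 to 76 and 150 to 340 UMIs. By edgeR the log2 fold change was -1.67 (SE 0.19), with an adjusted p of 0.016, rank 16 of the 8761 genes. Within the libraries without 5xFAD it was -1.61 and within those with 5xFAD -1.73, with adjusted p of 0.138 and 0.176 by edgeR. The call was lost when WT replicate 2, 5xFAD replicate 1, 5xFAD replicate 2 or *Cnp*-/-;5xFAD replicate 2 was left out, with adjusted p from 0.0687 to 0.109 by edgeR, while the log2 fold change stayed between -1.80 and -1.54.

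The same counts can be given as a share of nuclei. After thinning to 1000 UMIs, which left out 1081 of 5612 nuclei, 4.34% ± 1.20 (SD, n = 4) of MOL nuclei held an *Enpp6* UMI in the *Cnp*-null libraries and 12.5% ± 2.11 (n = 4) in the others. The ranges, 3.43 to 6.09% and 9.69 to 14.8%, did not overlap. This difference of -8.15 percentage points restates the difference in level and was not tested again. Without thinning the means were 6.13% and 19.9%. Nuclei that held *Enpp6* had 1.34 ± 0.05 UMIs of it in the *Cnp*-null libraries and 1.63 ± 0.17 in the others, without thinning, and their median depth was 1687 and 2158.5 UMIs averaged over libraries.

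In NFOL the genotypes overlapped. *Enpp6* was there at 80.9 and 243 CPM in WT, 259 and 148 in 5xFAD, 220 and 228 in *Cnp*-/-, and 252 and 253 in *Cnp*-/-;5xFAD. The means were 238 ± 16.6 CPM (n = 4) in the *Cnp*-null and 183 ± 83.8 CPM (n = 4) in the other libraries. The difference between stages was tested itself, as the effect of *Cnp* loss on the step from NFOL to MOL with the library as a block, where 43 of 10902 genes (0.394%) passed by edgeR, 16 of them with a higher step. For *Enpp6* this effect was -2.13 on the log2 scale (SE 0.32), with an adjusted p of 0.0043 by edgeR, rank 8 of all genes. It passed without any 1 of the 8 libraries, at -2.38 to -1.93 and adjusted p of 0.0046 to 0.0322 by edgeR. Nuclei with *Enpp6* and no *Pdgfra* were 8.11 and 13.6% of NFOL nuclei in WT and 24.0 and 19.2% in 5xFAD. They were 19.6 and 25.0% in *Cnp*-/- and 30.8 and 29.2% in *Cnp*-/-;5xFAD, and their part in the step was not tested. The plot of *Enpp6* by genotype sets the stages side by side.

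**Figure D3:**
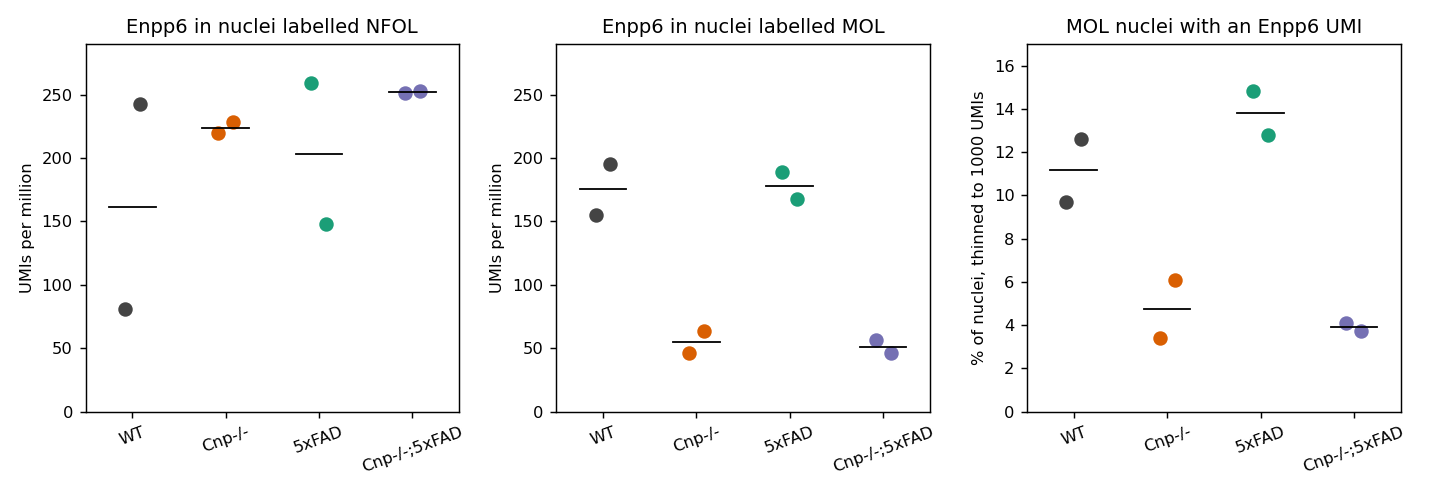
*Enpp6* by library and genotype, as level in NFOL (left, CPM), level in MOL (middle, CPM) and percent of MOL nuclei with an *Enpp6* UMI after thinning to 1000 UMIs (right), with bars at the genotype means. In MOL the *Cnp*-null libraries lie at 46.2 to 63.4 CPM and the others at 155 to 196 CPM, while in NFOL the groups overlap.

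Among the MOL nuclei of the WT and 5xFAD libraries, the 534 with an *Enpp6* UMI differed from the 2128 without in genes of mature oligodendrocytes. *Anln*, which encodes a scaffold protein of septins in myelin, averaged 873 ± 236 CPM (n = 4) with *Enpp6* and 444 ± 73.7 CPM without. *Hapln2*, a link protein of the node of Ranvier, averaged 803 ± 76.9 and 595 ± 65.3 CPM. *Klk6* averaged 71.7 ± 53.3 CPM with *Enpp6* and 11.1 ± 6.79 CPM without, and *Apod* 928 ± 445 and 610 ± 206 CPM. *Opalin*, a membrane protein of oligodendrocytes, was lower in the nuclei with *Enpp6*, at 212 ± 110 against 521 ± 54.1 CPM. Lower too were *Ptgds*, at 480 ± 203 against 2005 ± 2046 CPM, and *Mal*, at 355 ± 105 against 540 ± 176 CPM. Ranges over libraries overlapped for *Apod*, at 663 to 1589 CPM with *Enpp6* and 504 to 919 without. They also overlapped for *Mal*, at 261 to 473 and 403 to 793 CPM. *Ptgds* without *Enpp6* ran from 844 to 5066 CPM, so that its mean depended on the highest library. The major myelin gene *Mbp* was at 5208 ± 266 and 5186 ± 267 CPM, and *Tcf7l2*, at 103 ± 28.7 and 114 ± 8.56 CPM, was not higher with *Enpp6*. *Bcas1* was lower with *Enpp6*, at 806 ± 72.2 CPM (730 to 897) against 964 ± 39.5 CPM (923 to 1011), without overlap between libraries. The nuclei with *Enpp6* had more UMIs, a median of 2158.5 against 1593.88 averaged over libraries, and these levels are a description of nuclei picked by 1 of the genes.

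The other 8 genes tested in MOL moved with *Cnp* loss by -2.75 to 0.46 on the log2 scale, and none had an unadjusted p under 0.05. The lowest was *Cspg4*, with the few UMIs given above. The median over the 9 genes was 0.05, beside -0.03 over all 8761. With 5xFAD and in the interaction, 0 of the 9 genes and 0 of 8761 (0%) passed by edgeR in MOL, where 326 and 299 genes had an unadjusted p under 0.05 and DESeq2 called 6 and 10 genes. In MOL the marker sums of astrocytes (6.09 to 51.5 CPM), microglia (1.06 to 31.1 CPM) and neurons (1.03 to 63.9 CPM) were low in every library.

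In NFOL, 0 of the 10 genes passed for *Cnp* loss, where 116 of 7248 genes (1.6%) did by edgeR, 58 of them higher. By edgeR 973 genes had an unadjusted p under 0.05, and DESeq2 called 62. The number of all genes and of members called moved widely when a library was left out, as given in the section on processing. Of the 10, 3 had an unadjusted p under 0.05 by edgeR. *Olig1* had a log2 fold change of -0.68 (SE 0.30) with an adjusted p of 0.341 by edgeR. *Tcf7l2* was at 0.57 (SE 0.26) with an adjusted p of 0.362, and *Myrf* at 0.83 (SE 0.36) with an adjusted p of 0.331, both by edgeR. The remaining 7 lay between -0.41 and 0.45, and the median of the 10 was 0.26 beside 0.01 over all genes. For 5xFAD and for the interaction, 0 of the 10 genes and 0 of 7248 (0%) passed by edgeR, with 434 and 307 genes at an unadjusted p under 0.05, and DESeq2 called 0 in both.

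In OPC no genotype effect on the 9 genes tested passed, *Enpp6* being too low to test, and 0 of 9264 genes (0%) passed for *Cnp* loss, 5xFAD or the interaction by edgeR. At an unadjusted p under 0.05 there were 393, 407 and 342 genes, and DESeq2 called 1, 3 and 0. For *Cnp* loss the members under that unadjusted p were *Cspg4*, at -0.35 (SE 0.14), *Olig1*, at -0.56 (SE 0.21), and *Myrf*, at 1.37 (SE 0.48), each with an adjusted p of 1.00 by edgeR. *Myrf* also had a log2 fold change of 1.54 (SE 0.48) for 5xFAD, with an adjusted p of 0.993 by edgeR, and *Olig2* was at -0.44 (SE 0.19) with the same adjusted p. In the interaction *Bcas1* was at 0.56 (SE 0.17) and *Myrf* at -2.46 (SE 0.96), with adjusted p of 1.00 by edgeR. The *Myrf* estimates in OPC rested on 1 and 2 UMIs in WT replicates 1 and 2 and on 5 to 26 in the other libraries. The summed myelin markers in OPC were lowest in WT replicate 1, at 27.9 CPM, and highest in WT replicate 2, at 377 CPM. They were at 131 to 331 CPM in the other libraries, and the part of myelin transcripts in the *Myrf* values was not tested. The other members lay between -0.28 and 0.09 for *Cnp* loss and between -0.27 and 0.14 for 5xFAD.

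On the step from OPC to NFOL, 0 of the 10 genes passed for *Cnp* loss, where 28 of 9365 genes (0.299%) passed by edgeR, 15 of them with a higher step. By edgeR 804 genes had an unadjusted p under 0.05. The count of genes that passed also moved widely when a library was left out, as given in the section on processing. *Tcf7l2* came nearest, at 0.81 (SE 0.26) with an adjusted p of 0.254 by edgeR. It passed without 5xFAD replicate 1, at 1.08, or without *Cnp*-/-;5xFAD replicate 2, at 1.17. On the step from NFOL to MOL, *Enpp6* was joined at an unadjusted p under 0.05 by *Cspg4*, at -2.40 (SE 0.79, adjusted p 0.353 by edgeR), *Olig2*, at 1.00 (SE 0.43, adjusted p 0.608), and *Tcf7l2*, at -0.81 (SE 0.30, adjusted p 0.456). *Cspg4* passed at -2.90 without WT replicate 1, with an adjusted p of 0.0489 by edgeR. With 5xFAD, 0 of the 10 genes and 0 of 9365 and 10902 genes (0%) passed at these steps by edgeR, with 519 and 399 at an unadjusted p under 0.05, and DESeq2 was not run on steps. The plot of genotype effects gives every gene's estimate.

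**Figure D4:**
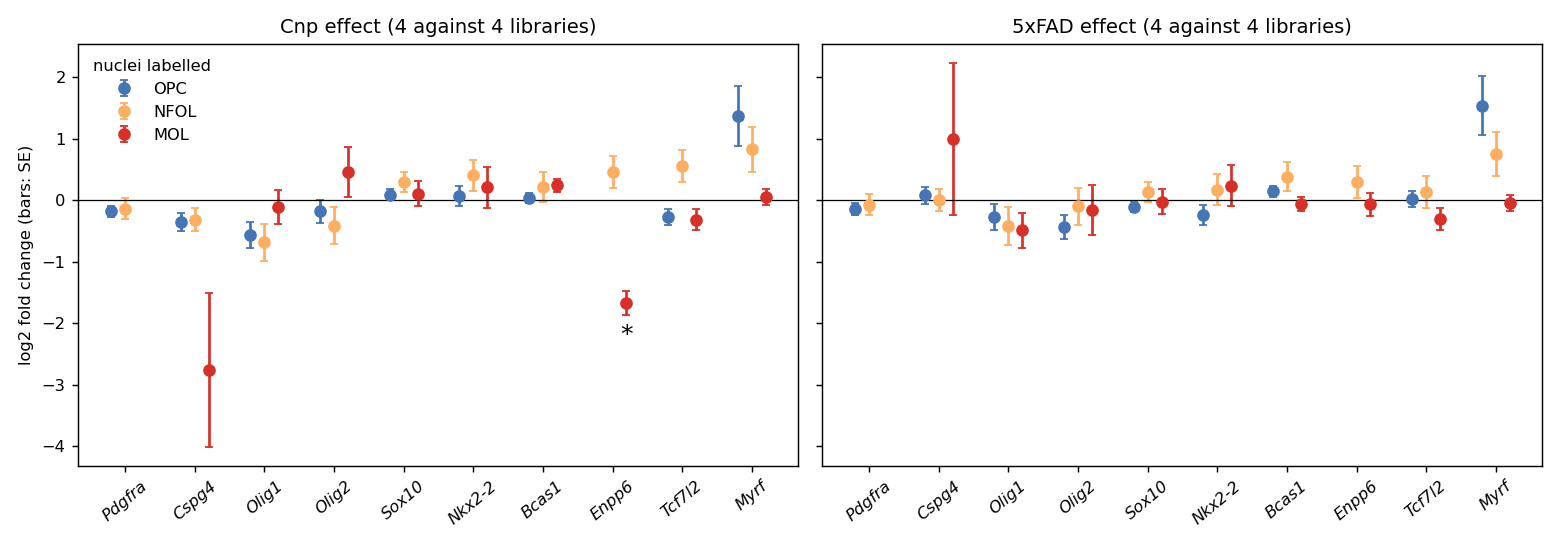
Log2 fold change (± SE, edgeR) of each tested gene with *Cnp* loss (left) and with 5xFAD (right) in OPC, NFOL and MOL, with an asterisk where the adjusted p was under 0.05. The asterisk stands at *Enpp6* in MOL with *Cnp* loss, at -1.67, and *Cspg4* in MOL, at -2.75, has a wide error. *Enpp6* in OPC and *Pdgfra* in MOL were too low to test.

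Other lineage genes were counted in 5 lists. In NFOL, 5 of 16 tested mature oligodendrocyte genes rose with *Cnp* loss, where 1.6% of all genes passed in either direction, with a list median of 0.76 on the log2 scale beside 0.01 for all genes. The count depended on single libraries: it was 1 without WT replicate 1 (*Mbp*, while *Anln* fell, with a list median of 0.44), 12 without WT replicate 2 and 0 without *Cnp*-/- replicate 1. When nuclei with 3 or more astrocyte or microglia marker UMIs were left out, which also removed WT replicate 1 because 6 of its NFOL nuclei remained, 0 of 15 tested mature genes rose, 2 fell (*Anln* and *Apod*), and the list median was -0.07. *Mbp*, a main protein of compact myelin, had a log2 fold change of 1.18 and an adjusted p of 0.0151 by edgeR. *Opalin* was at 1.24 (adjusted p 0.022 by edgeR), *Mag*, an adhesion protein facing the axon, at 0.91 (0.0286), and *Cldn11*, the tight-junction claudin of myelin, at 0.99 (0.0323). The summed MOL markers in NFOL were at 1410 and 3628 CPM in WT, 3011 and 2530 in 5xFAD, 4907 and 4322 in *Cnp*-/-, and 5348 and 4350 in *Cnp*-/-;5xFAD. Astrocyte markers in the same profiles were at 2894 and 1050 CPM in WT, 1785 and 2287 in 5xFAD, 1014 and 1120 in *Cnp*-/-, and 1159 and 1272 in *Cnp*-/-;5xFAD, and their part in these changes was not tested. Of all genes, 116 passed in NFOL, 33 passed without WT replicate 1, and 24 passed without that library and without the nuclei that held such markers. In that last fit *Mbp* was at 0.77 (adjusted p 0.152 by edgeR), *Opalin* at 0.57 (0.702), *Mag* at 0.60 (0.465) and *Cldn11* at 0.57 (0.628).

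Of 12 committed and newly formed oligodendrocyte genes tested in NFOL, *Cnksr3* rose with *Cnp* loss, at 1.73 (adjusted p 0.0462 by edgeR). Of 30 other transcription and chromatin regulators, *Zfp536*, at 1.02 (adjusted p 0.0154 by edgeR), and *St18*, at 0.87 (0.0349), rose, both zinc finger factors. Of 20 receptors and signals, *Bmpr1b*, a receptor for bone morphogenetic proteins, fell, at -1.19 (adjusted p 0.0112 by edgeR). Of 15 progenitor genes tested 0 passed, and all lay below 0 with a median of -0.28, as did 49.0% of all genes. The share of all genes called in NFOL, 1.6%, stands beside each of these counts, and without WT replicate 1 and the nuclei that held 3 or more astrocyte or microglia marker UMIs 0 genes of these 4 lists passed by edgeR. In that fit *Bmpr1b* was too low to test, and *Cnksr3* was at 1.48 (adjusted p 0.0573 by edgeR). Leaving out 1 library at a time, *Zfp536* was called in 7 of 8 fits, *Bmpr1b* in 6, *Cnksr3* in 3 and *St18* in 2.

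In MOL, where 0.765% of all genes passed, *Cnp* loss raised the neuregulin receptor *Erbb4*, at 0.64 (adjusted p 0.0326 by edgeR), of 13 receptors and signals, and lowered *Anln*, at -1.21 (adjusted p 0.0353 by edgeR), of 18 mature genes. *Anln* was lower in the *Cnp*-null libraries both among MOL nuclei with *Enpp6*, at 523 ± 114 against 873 ± 236 CPM, and among those without, at 207 ± 39.9 against 444 ± 73.7 CPM (SD, n = 4 libraries each). Leaving out 1 library at a time, *Anln* was called in 2 of 8 fits and *Erbb4* in 1, with adjusted p up to 0.163 by edgeR in both, while their log2 fold changes stayed between -1.36 and -1.02 for *Anln* and between 0.59 and 0.71 for *Erbb4*. On the step from OPC to NFOL, where 0.299% of all genes passed, *Zfp536* had a higher step with *Cnp* loss, at 0.99 (adjusted p 0.0168 by edgeR), of 34 regulators, which became 0.42 (adjusted p 0.943 by edgeR) without WT replicate 1 and the nuclei that held other markers, and was called in 4 of 8 fits that left out 1 library. In every other contrast and stage, 0 genes of these 5 lists passed by edgeR. Without WT replicate 1 and the nuclei that held other markers, *Cnksr3*, at -1.34 (adjusted p 0.0334 by edgeR), and *Pdgfa*, a ligand of the receptor encoded by *Pdgfra*, at -3.72 (0.0085), had a lower step from NFOL to MOL with *Cnp* loss.

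The stages themselves made up different shares of the lineage in each library. NFOL were 4.26 and 3.96% of lineage nuclei in WT, 4.25 and 5.49% in *Cnp*-/-, 7.27 and 8.94% in 5xFAD, and 7.09 and 6.94% in *Cnp*-/-;5xFAD. The 4 libraries with 5xFAD, at 7.56% ± 0.93 (SD, n = 4), all lay above the 4 without, at 4.49% ± 0.68, a difference of 3.07 percentage points with an exact two-sided permutation p of 0.0286, the smallest possible. Over the 6 comparisons of stages and factors the adjusted p was 0.0857, which missed the threshold. MOL were 71.5% ± 3.08 with 5xFAD and 76.7% ± 2.55 without, a difference of -5.17 percentage points with the same exact p and adjusted p. As a share of all nuclei the difference in MOL was 1.43 percentage points, in the opposite direction. The share of OPC with 5xFAD and all 3 shares with *Cnp* loss differed by -1.46 to 2.10 percentage points, with exact permutation p from 0.229 to 0.829.

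The nuclei with *Enpp6* and no *Pdgfra* were 0.346 and 0.540% of lineage nuclei in WT, 0.834 and 1.37% in *Cnp*-/-, 1.75 and 1.71% in 5xFAD, and 2.18 and 2.03% in *Cnp*-/-;5xFAD. They were fewest in both WT libraries. The nuclei with *Pdgfra* and no *Enpp6* were 2.88 and 2.34% in WT, 2.67 and 2.86% in *Cnp*-/-, 4.12 and 4.90% in 5xFAD, and 3.49 and 3.85% in *Cnp*-/-;5xFAD, so that in this class too every library with 5xFAD lay above every library without. No test was made of these shares, which depend on how many UMIs each nucleus had.

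Outside the lineage, most of the 10 genes were low. *Cspg4* averaged 352 CPM in pericytes, which are known to carry NG2, and 104 CPM in endothelial cells. *Tcf7l2* averaged 502 CPM in astrocytes, 246 in microglia, 238 in pericytes and 135 in endothelial cells, so that its mean in astrocytes came close to its mean in NFOL. The part of astrocyte transcripts in the NFOL level of this gene was not tested. In the NFOL nuclei left after those with 3 or more astrocyte or microglia marker UMIs were taken out, *Tcf7l2* was at 407 to 1915 CPM.

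The study's subpopulation of microglia named MyTE (270 nuclei), which carries myelin transcripts, also held the lineage genes. With all genotypes pooled, its level was 44.7% of the MOL level for *Enpp6*, whose MOL level differed with *Cnp* genotype as given above, 46.7% for *Olig1*, 55.1% for *Myrf*, 56.5% for *Bcas1*, 62.0% for *Olig2*, 67.7% for *Nkx2-2* and 70.9% for *Sox10*. For the myelin genes *Mbp* and *Mog*, the same ratio was 58.1% and 57.5%. The ratios of the lineage genes thus lay on either side of those of the myelin genes. *Tcf7l2* stood apart at 188%, and it was at 185 to 324 CPM in the other microglia subpopulations as well.

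**Figure D5:**
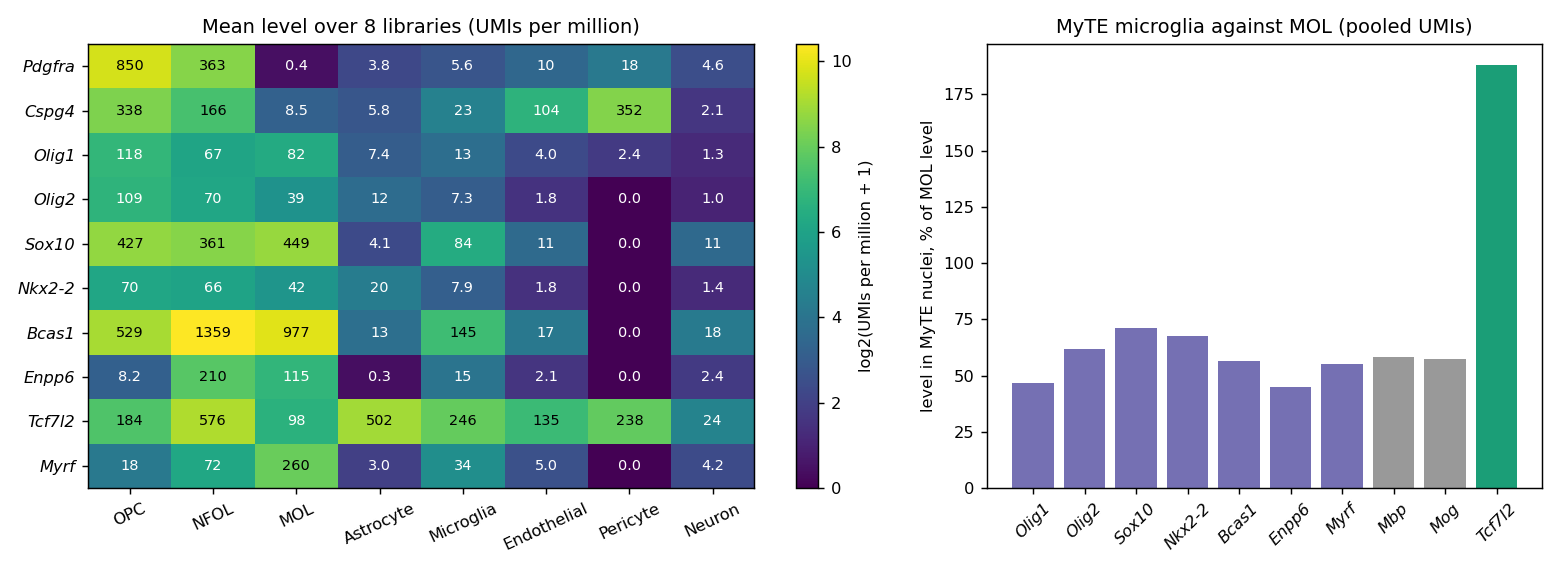
Left, mean level of the 10 genes in 8 cell types as colour on a log2(CPM + 1) scale. Right, level in MyTE microglia as a percent of the MOL level, as bars from 0 for 8 of the genes and, in grey, *Mbp* and *Mog*, where *Enpp6* is at 44.7% of a MOL level that pools all genotypes and *Tcf7l2* stands apart at 188%. *Pdgfra* and *Cspg4*, at few UMIs in both, are not drawn.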

How the data were processed

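The deposited tables held UMI counts per gene and nucleus, which the authors made with Cell Ranger 6.1.2 on mm10 (from the submitters' processing notes), followed by removal of ambient RNA with CellBender, filters on genes and transcripts per nucleus, clustering in Seurat and annotation. Treatment of doublets, counting of intronic reads and use of strand are not given in the sources used here. If counting did not use strand, reads of overlapping genes on opposite strands could not be told apart. Such pairs were *Enpp6* with *Gm45600* or *4930579M01Rik*, *Bcas1* with *Bcas1os1* or *Bcas1os2*, and *Nkx2-2* with *Nkx2-2os* or *6430503K07Rik*. Others were *Pdgfra* with *Gm42802* and *Olig1* with *Gm15966*. Overlapping reads of *Tcf7l2* and *Ppnr*, which share a strand, could not be told apart in either case.

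Counts were summed per library and annotated cell type (profiles of at least 10 nuclei) and tested with edgeR 4.0.16 in R 4.3.3 (filterByExpr, TMM, glmQLFit, glmQLFTest, two-sided), with DESeq2 1.42.0 as an alternative. Steps between stages were fitted with the library as a block. Step values were log2 ratios with a pseudocount of 1 CPM, ranked among genes of at least 10 CPM in a stage compared. Shares of nuclei with a UMI were taken after thinning to 1000 UMIs, leaving out shallower nuclei. Shares of stages were tested by exact permutation with Python 3.11.15 and scipy 1.17.1.

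Log2 fold changes were printed for members with an unadjusted p under 0.05, and of each other list at most the 4 genes with the lowest adjusted p past 0.05 were named. Levels in nuclei with and without *Enpp6*, including the genes named there, were looked at after these tests had been seen. Members, lists and tests were chosen with earlier results of these data known. The edgeR steps were tested on simulated data.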

Additional observations from a re-analysis of the deposited data

Results flagged for a closer look

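The effect of *Cnp* loss on *Enpp6* differed between stages by a test of the difference itself. The step from NFOL to MOL was changed by -2.13 on the log2 scale (SE 0.32, adjusted p 0.0043 by edgeR), with levels of 53.0 ± 8.38 CPM in MOL of the 4 *Cnp*-null libraries and 177 ± 18.5 CPM in MOL of the 4 others, beside 238 ± 16.6 and 183 ± 83.8 CPM in NFOL. The share of NFOL nuclei with *Enpp6* and no *Pdgfra* ran from 8.11 to 30.8% over the libraries, and its part in the step was not tested. No group had the 4 libraries needed to look for a library that stands apart, since each genotype had 2.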

How the results depend on the processing

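The fall of *Enpp6* in MOL with *Cnp* loss was called under all 7 alternatives that used every library and both backgrounds, with adjusted p from 1.4e-12 to 0.0437, and in 4 of 8 fits that left out a library, with adjusted p from 0.027 to 0.109 by edgeR. It was called in neither background alone. Its change on the step from NFOL to MOL was called in all 8 such fits and under 4 of 4 other alternatives. Of 240 values of stage steps, 238 moved by less than 1 SD, 2 moved by more (both of *Pdgfra*), and 0 changed sign. The set without nuclei that held astrocyte or microglia markers was not among these alternatives. In that set *Bcas1* was at 1732 to 3548 CPM in NFOL, beside 551 to 1732 with all NFOL nuclei. From OPC to NFOL, *Sox10* there rose except in WT replicate 2 and *Cnp*-/- replicate 1, although it fell in 7 of 8 libraries with all nuclei. *Nkx2-2* rose except in WT replicate 1, while with all nuclei it rose in 4.

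Deviations of same-numbered libraries were little correlated over the genes tested, at -0.113 to 0.115 in OPC, -0.0900 to 0.0708 in NFOL and -0.0883 to 0.161 in MOL. Genes with few UMIs lower such correlations, so that they cannot tell whether replicate numbers mark a batch. With the replicate block, 43 genes were called for *Cnp* loss in NFOL in place of 116 and 23 in MOL in place of 67 (16 of them higher), and *Enpp6* in MOL kept an adjusted p of 0.0437 by edgeR. With the block the other counts were as in the fit without it. Of the lineage lists, *Opalin*, *Zfp536*, *Bmpr1b* and the fifth mature gene, *Aspa* (named after its values were seen), were called in NFOL with the block, while *Mbp*, *Mag*, *Cldn11*, *St18* and *Cnksr3* in NFOL and *Anln* and *Erbb4* in MOL had adjusted p of 0.0591 to 0.102 by edgeR.

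Without a filter on low counts the numbers of called genes were higher in every contrast, and the cause was not tested. They were 127 for *Cnp* loss, 110 for 5xFAD and 73 for the interaction in OPC, 344, 47 and 5 in NFOL, and 544 (201 of them higher), 37 and 44 in MOL. On the step from OPC to NFOL they were 76 for *Cnp* loss and 16 for 5xFAD, and on that from NFOL to MOL 162 and 25. The members called were then 1 for *Cnp* loss in NFOL (*Tcf7l2*), 1 on the step from OPC to NFOL (*Tcf7l2*) and 2 on that from NFOL to MOL (*Enpp6* and *Cspg4*, at -2.42). DESeq2 called 1 gene for *Cnp* loss and 3 for 5xFAD in OPC, 62 for *Cnp* loss in NFOL, and 512 (222 of them higher) for *Cnp* loss, 6 for 5xFAD and 10 for the interaction in MOL.

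With equal numbers of nuclei per profile, 1 gene was called for 5xFAD in OPC and 22 for *Cnp* loss in NFOL. With nuclei of at least 1000 UMIs, 103 were called for *Cnp* loss in MOL, and the differences in share with *Cnp* loss were 1.14 (OPC), 0.650 (NFOL) and -1.78 (MOL) percentage points, all of reversed sign. Among nuclei that are not neurons they were 0.0282 for OPC and 0.0903 for NFOL, also reversed, and among all nuclei the difference in MOL with 5xFAD was 1.43, reversed. Within 1 background, *Cnp* loss called 8 genes in NFOL and 4 in MOL without 5xFAD, and 1 and 2 with it, with 0 members, and 5xFAD in libraries with *Cnp* called 2 genes in NFOL and 1 in MOL.

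An alternative chosen after seeing the data kept nuclei with under 3 UMIs of astrocyte and microglia markers. WT replicate 1 kept 6 NFOL nuclei and was left out, so that 2 choices changed at once in NFOL and in the steps. For *Cnp* loss it called 24 genes in NFOL (33 with all nuclei of the other 7 libraries), 0 on the step from OPC to NFOL and 77 on that from NFOL to MOL, with 2 members (*Enpp6*, at -1.81, and *Cspg4*, at -2.97), and for 5xFAD it called 1 and 26 genes on these steps.

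Leaving out 1 library at a time, the genes called for *Cnp* loss ran from 0 to 3 in OPC, from 15 (without *Cnp*-/- replicate 1) to 366 (without WT replicate 2) in NFOL, from 2 (without 5xFAD replicate 2) to 262 (without *Cnp*-/- replicate 1) in MOL, from 0 to 59 on the step from OPC to NFOL and from 16 to 39 on that from NFOL to MOL. For 5xFAD they ran from 0 to 12 in NFOL, 0 to 3 on the step from OPC to NFOL and 0 to 1 on that from NFOL to MOL, and for the interaction from 0 to 2 in OPC and in NFOL. Members called ran from 0 to 1 for 5xFAD in NFOL, 0 to 2 for *Cnp* loss in NFOL (the highest without WT replicate 2 in both), 0 to 1 in MOL, 0 to 1 on the step from OPC to NFOL and 1 to 2 on that from NFOL to MOL. The difference in share with *Cnp* loss ran from -0.879 to 0.781 percentage points for NFOL and from -0.367 to 3.81 for MOL.

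Depth limited *Pdgfra* in MOL (4 UMIs), *Enpp6* in OPC (32 UMIs) and *Cspg4* in MOL, and NFOL profiles held as few as 22 nuclei.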
